A study of Homo sapiens with 12 samples.

Results

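Gene-desert H3K27me3 marks are places where neuroblastoma cells carried trimethylated histone 3 lysine 27 far from any protein-coding gene. They were chosen from the peak lists of the 2 samples of Tau expressing cells (WT). Peaks of both WT lists that overlapped by 1 bp or more were merged to marks. A mark was kept when it lay on chromosomes 1 to 22, held a peak of both WT lists, was less than 20 kb wide, lay at least 100 kb from every protein-coding gene of GENCODE release 44 (hg38), and had no start site of a long non-coding RNA (lncRNA) within 1 kb. This rule kept 37110 of the 103326 autosomal marks with peaks of both WT lists, or 35.9%. Of the rest, 65671 were also less than 20 kb wide and are called the other WT marks. Since the WT lists chose the marks, their presence in WT is by construction, and the loss of such marks in other samples is not tested against WT.

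The study compared H3K27me3 marks between Tau expressing cells and cells without Tau. SH-SY5Y, a human neuroblastoma cell line, was used unmodified (wild type, Tau expressing) and as the MAPT knock-out (Tau-KO) lines 231K and 232P, all untreated, in biological duplicate, which gives 6 ChIP samples with 1 peak list each. Whether a line is 1 clone was not stated in the labels, so a difference between lines cannot be told apart from one between clones. The lists of WT replicates 1 and 2 held 285826 and 222191 peaks, those of 231K held 271413 and 212347, and those of 232P held 147118 and 199677. Every one of these lists is larger than the range of peak counts that the paper's methods give for its 6 samples. The lists may therefore differ from the peak set analysed there. Read numbers are not part of the lists. All peaks in both lists labelled 232P carry names that begin with 231P, which the study also uses for a different Tau-KO line. The labels were followed, so the line behind every value given for 232P is in doubt. Depth was estimated from the lowest local background and the narrowest peak of each list, without knowledge of the control library or fragment length used. By this estimate, WT replicate 1 was the deepest library. Relative to it (100%), the depth of the other WT sample was 66.6%, that of the 231K samples 94.8% and 68.7%, and that of the 232P samples 68.1% and 56.9%. The list of 232P replicate 1 stands apart as the smallest. Its peaks had a median width of 335 bp, against 440 bp or more in the others. Several summary values that rest on this list are also given without it, but not all of them. A mark that is absent from a list did not pass its threshold at that depth, which does not show that the modification was gone.

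H3K27me3 is laid down by the Polycomb Repressive Complex 2 (PRC2), whose catalytic subunit EZH2 adds the methyl groups and whose subunit EED binds the finished mark, which lets the complex spread along chromatin. The mark is best known at silent promoters of developmental transcription factors, which are often rich in CpG dinucleotides. It also forms wide domains that reach into the surrounding intergenic DNA. Gene deserts are long stretches without protein-coding genes. Many of them flank developmental regulators and hold distant enhancers, while others, poor in CpG and gene-poor over megabases, are packed in heterochromatin of other kinds.

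A pair of gene-desert marks described again below is shown as an example. Printed are the 150 bases around the summit of WT replicate 1, with CG dinucleotides in capitals, on the plus strand of hg38. The first ranked 4th by strength in WT, at chr4:49321316-49324438 between CWH43 and DCUN1D4. The second was strong in WT and absent from all Tau-KO lists, at chr9:22965603-22967042 between DMRTA1 and ELAVL2.
chr4 mark, summit at 49323046 to 49323195: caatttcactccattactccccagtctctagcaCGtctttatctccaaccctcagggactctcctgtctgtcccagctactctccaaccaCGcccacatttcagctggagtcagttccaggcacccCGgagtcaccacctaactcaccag
chr9 mark, summit at 22966531 to 22966680: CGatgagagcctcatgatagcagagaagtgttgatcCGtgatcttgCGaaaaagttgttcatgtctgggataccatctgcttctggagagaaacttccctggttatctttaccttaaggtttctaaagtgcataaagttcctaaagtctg
Each of these summits held 3 CG dinucleotides, and neither is a dense CpG island like those of many Polycomb promoters.

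The gene-desert marks were short and lay close together. Their median width was 1232 bp, with the middle 50% between 769 and 2180 bp and a range of 246 to 19914 bp. In all they covered 69.9 Mb, against 164 Mb for the other WT marks with a median width of 1490 bp. The next gene-desert mark lay a median of 1343 bp away, and 86.5% of these gaps were under 10 kb. The median distance to the nearest protein-coding gene was 316 kb and the largest was 5304 kb. A total of 11661 marks, or 31.4%, lay over 500 kb from a gene, and 3845, or 10.4%, lay over 1000 kb from one. A lncRNA gene was overlapped by 11232 marks, or 30.3%, away from its start sites.

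The marks next to the limits of the rule are given as a description. The widest mark kept was chr8:6049106-6069019, 19914 bp wide and 338 kb from MCPH1, with a fold enrichment over local background of 6.75 and 6.30 in WT. The narrowest mark left out for its width alone was chr6:159434382-159454428 between FNDC1 and SOD2, with 9.93 and 8.83. At the gene limit, the mark just outside, between GPD2 and GALNT5 at 99997 bp from a gene, had 3.89 and 5.46. At the lncRNA limit, the mark just inside, at 1001 bp between MSRB3 and HMGA2, had 3.97 and 6.30.

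The gene-desert marks were weaker in WT than the other WT marks. Their median fold enrichment was 3.57 and 3.91 in the WT replicates, against 3.97 and 4.2. A -log10 q-value of 5 or more in both WT lists was reached by 3737 of them, or 10.1%, against 19.5% of the other marks. These are values of the lists that chose the marks and are a description. Where a gene-desert mark was found in a Tau-KO list, its median fold enrichment there was 4.10 and 4.57 in 231K and 3.98 and 4.04 in 232P. These medians lie above both WT medians, but cover only the marks that passed the threshold of that list. They are therefore not compared with WT. The medians for the other WT marks were 4.33, 5.00, 4.37 and 4.41 in the same order, higher in each Tau-KO list.

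The DNA under the gene-desert marks was poorer in CpG than that under the other WT marks but richer than gene-desert territory as a whole, marks included. The median CpG density was 6.80 per kb, against 7.73 per kb under the other WT marks and 5.68 per kb in 128007 windows of 1232 bp laid over the same gene-desert territory. The median GC content was 38.9%, 40.6% and 37.7% in the same order. A CpG-rich window, of 200 bp with at least 50% GC and an observed to expected CpG ratio of at least 0.6, was found in 4275 gene-desert marks, or 11.5%, in 18.8% of the other WT marks and in 6.29% of the territory windows. Wider marks have more room for such a window. Among the 7689 gene-desert marks of at least 1000 and under 1500 bp the share was 6.48%, against 6.29% of the windows, so at like width the shares were close. The CpG-rich marks had a median width of 2799 bp against 1144 bp for the rest.

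At an overlap of 1 bp, most gene-desert marks were found again in each Tau-KO sample but 232P replicate 1. With presence only where 50% of a mark was covered, the mean was 47.8% in 231K and 23.2% in 232P. The values that follow are for 1 bp. In 231K, a peak overlapped 27810 of them (74.9%) in replicate 1 and 30806 (83.0%) in replicate 2. In 232P, the numbers were 14544 (39.2%) and 27159 (73.2%). The mean was 79.0% ± 5.71 (SD, n = 2) for 231K and 56.2% ± 24.0 (SD, n = 2) for 232P. The 2 samples of 231K lay above both of 232P, but the lower 231K sample and the higher 232P sample were only 1.75 percentage points apart. The difference of 22.8 percentage points between the lines had a p of 0.333 in an exact permutation test, two-sided, which is the smallest that 2 against 2 samples allow. It was 5.79 without 232P replicate 1 and 39.8 without 232P replicate 2, so that 1 library sets its size.

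In every Tau-KO sample the gene-desert marks were found again less often than the other WT marks. The shares of the other WT marks were 81.9% and 89.4% in 231K and 52.0% and 78.3% in 232P. The difference, gene-desert minus other, was -6.92 and -6.38 percentage points in 231K and -12.9 and -5.14 in 232P, with a mean of -7.82 ± 3.44 (SD, n = 4). An exact sign-flip permutation test over the 4 samples, two-sided, gave p = 0.125, the smallest that 4 samples allow, so a threshold of 0.05 cannot be reached. Without 232P replicate 1 the mean was -6.15. Each Tau-KO sample showed this direction.

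**Figure D1:**
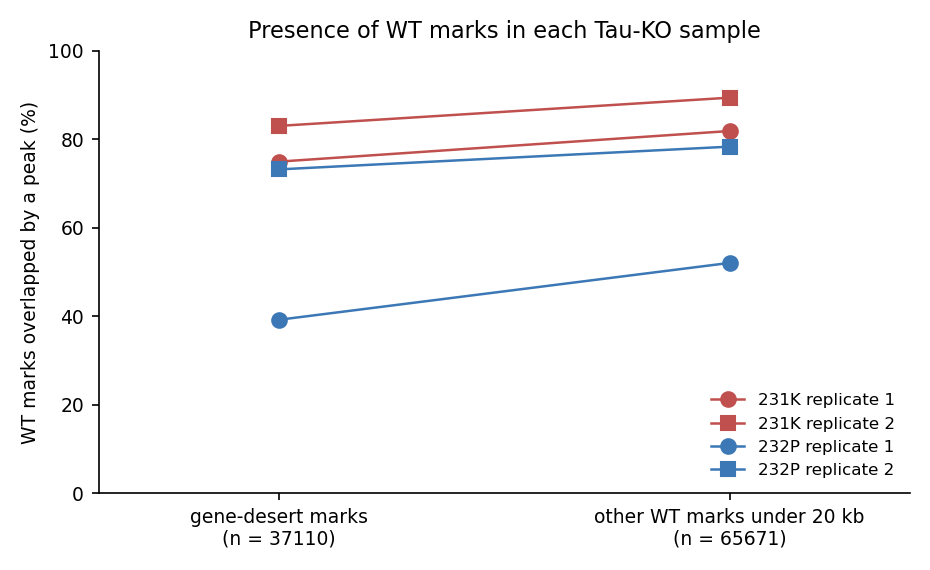
Percent of WT marks overlapped by a peak (y axis, 0 to 100%) for gene-desert marks and other WT marks, with 1 line per Tau-KO sample (circles replicate 1, squares replicate 2). All 4 lines rise to the right, and 232P replicate 1 lies lowest, at 39.2% and 52.0%.

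Part of this difference went with the strength and width of the marks. Among marks whose lower -log10 q-value of the WT pair was under 2, gene-desert marks were found in 58.1%, 70.6%, 18.7% and 58.2% of cases in 231K replicates 1 and 2 and 232P replicates 1 and 2. From 5 to 10 these shares were 99.0%, 99.1%, 91.8% and 97.6%. The mean difference to the other WT marks was -4.02 percentage points under 2, -3.78 from 2 to 3, -3.69 from 3 to 5, -0.951 from 5 to 10 and -0.385 at 10 or more. By width, it was -4.86 under 500 bp, -5.46 from 500 to 1000 bp, -4.57 from 1000 to 2000 bp, -2.23 from 2000 to 5000 bp and -0.439 from 5000 to 20000 bp. The mean within each class was thus smaller than the mean over all marks, and it was under 1 percentage point among the strongest and the widest. This did not hold for each sample. In 231K replicate 2 the difference was -7.39 from 500 to 1000 bp, -6.67 under 500 bp and -6.40 under a -log10 q-value of 2, against -6.38 over all marks. In 232P replicate 1 it was still -2.93 from 5 to 10 and -1.51 among the widest. In the class of 10 or more, with 201 gene-desert marks, its sign was not the same in all samples.

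**Figure D2:**
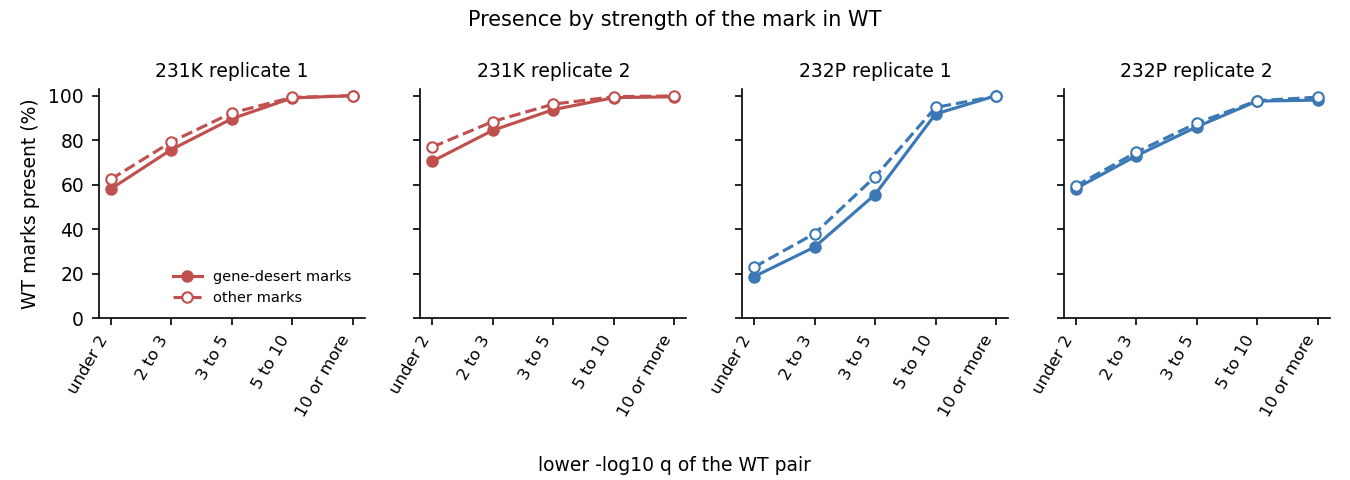
Percent of WT marks present in each Tau-KO sample (y axis) by the lower -log10 q-value of the WT pair (x axis, 5 classes), for gene-desert marks (filled, solid) and other WT marks (open, dashed). Both curves climb with strength in every panel, from 18.7% to 100% of gene-desert marks in 232P replicate 1.

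Distance to genes went with presence as well. Between 100 and 200 kb from a gene, 11122 gene-desert marks were found in 79.4% and 87.0% of cases in 231K and in 46.0% and 76.5% in 232P. Beyond 1000 kb these shares were 66.5%, 75.6%, 28.1% and 67.1%. The median width fell from 1342.5 bp to 1086 bp over the same range, and the part of width in the trend was not tested. CpG-rich gene-desert marks were found in 90.1%, 93.0%, 73.2% and 85.6% of cases, against 73.0%, 81.7%, 34.8% and 71.6% for the rest. Among marks of 1000 to 2000 bp, CpG-rich and other members were close in 3 of the samples, with 83.3% against 80.2% in the first 231K sample, 88.5% against 88.6% in the second, and 73.3% against 77.6% in 232P replicate 2. In 232P replicate 1, CpG-rich marks of this width were found in 51.1% of cases and the rest in 32.7%.

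Over all 4 Tau-KO samples, 11797 gene-desert marks, or 31.8%, were present in every one, against 39.9% of all autosomal WT marks under 20 kb. Another 9438, or 25.4%, were missing from 232P replicate 1 only, so that 57.2% were present in all of the other 3 samples, against 63.8% of all such WT marks. Absent from all 4 were 2225, or 6.0%, against 4.42% of all such WT marks, and absent from the 3 samples other than 232P replicate 1 were 2418, or 6.52%, against 4.99%. Absent from both 231K samples were 3609, or 9.73%, against 7.31%. Absent from both 232P samples were 8222, or 22.2%, against 18.4%. These shares of loss include the other WT marks in their background and were higher for gene-desert marks in each case. The shares absent from both samples of a line depended on the rule. With presence at 50% covered they were 33.1% for 231K and 56.4% for 232P. Without WT replicate 1 they were 24.2% and 39.5%, and without WT replicate 2 24.0% and 39.97%. Of the 3737 marks with a -log10 q-value of 5 or more in both WT lists, 3373, or 90.3%, were present in all 4 Tau-KO samples, against 92.6% of all 16552 autosomal WT marks of that strength under 20 kb. Absent from all 4 were 5, or 0.134%, against 9, or 0.0544%, of all marks of that strength.

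The same rule can be applied to the pair of lists of each genotype, so that no genotype alone defines the marks. The 231K pair then gave 34969 gene-desert marks, 0.942 times the WT number, and the 232P pair gave 17005, or 0.458 times. A pair needs both of its samples, so the latter value cannot be given without 232P replicate 1. The ratio of 231K turned to 1.12 when a -log10 q-value of 5 or more was required, and to 1.02 when peaks were scaled to the lowest estimated depth. When every list was limited to the same number of its strongest peaks, the ratio of 232P was 0.768, and when a -log10 q-value of 5 or more was required it was 0.209. Of the marks of the 231K pair, 78.9% and 85.4% had a peak in WT replicates 1 and 2. These are close to the 74.9% and 83.0% of WT marks found in the 231K samples. Of the marks of the 232P pair, 90.3% and 93.8% had a peak in WT, while 39.2% and 73.2% of WT marks had one in 232P. Marks missing from the other genotype were found in both directions for 231K and mostly in one direction for 232P. Marks of the 232P pair had to pass in 232P replicate 1, the smallest list, and were then sought in larger WT lists. The part of list size in this one-way pattern was not tested.

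Gene-desert territory, meaning all autosomal DNA at least 100 kb from a protein-coding gene and over 1 kb from a lncRNA start site, is set by the annotation alone and treats the 6 lists alike. It spans 777 Mb. WT replicates 1 and 2 had 88789 and 73745 peaks in it, 231K had 84025 and 69827, and 232P had 37716 and 64850. WT and 231K overlapped, and both 232P samples lay below them. Among samples of the same replicate number, both lines lay below WT. On average, Tau-KO samples had 0.789 times the WT number, with p = 0.333 in an exact permutation test, two-sided, where 4 against 2 samples can reach 0.0667. For 231K the ratio was 0.947 (exact permutation p = 0.667) and for 232P 0.631 (exact permutation p = 0.333), where 2 against 2 samples cannot go below 0.333. Without 232P replicate 1 the ratio of Tau-KO to WT was 0.897 and that of 232P to WT 0.798.

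As a share of the autosomal peaks of each list, territory peaks made up 36% and 39.0% in WT, 35.4% and 38.8% in 231K, and 27.6% and 36.5% in 232P. The groups overlapped apart from 232P replicate 1. Within each replicate number, both lines lay below WT in this share. The ratio of Tau-KO to WT was 0.922 (exact permutation p = 0.60, two-sided) and 0.984 without 232P replicate 1. For 232P it was 0.856, and 0.974 without that sample. The covered length was 57.7 and 79.2 Mb in WT, 52.9 and 78 Mb in 231K, and 16.5 and 60.4 Mb in 232P. In WT and 231K, replicate 2 covered more than replicate 1 with fewer but wider peaks.

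**Figure D3:**
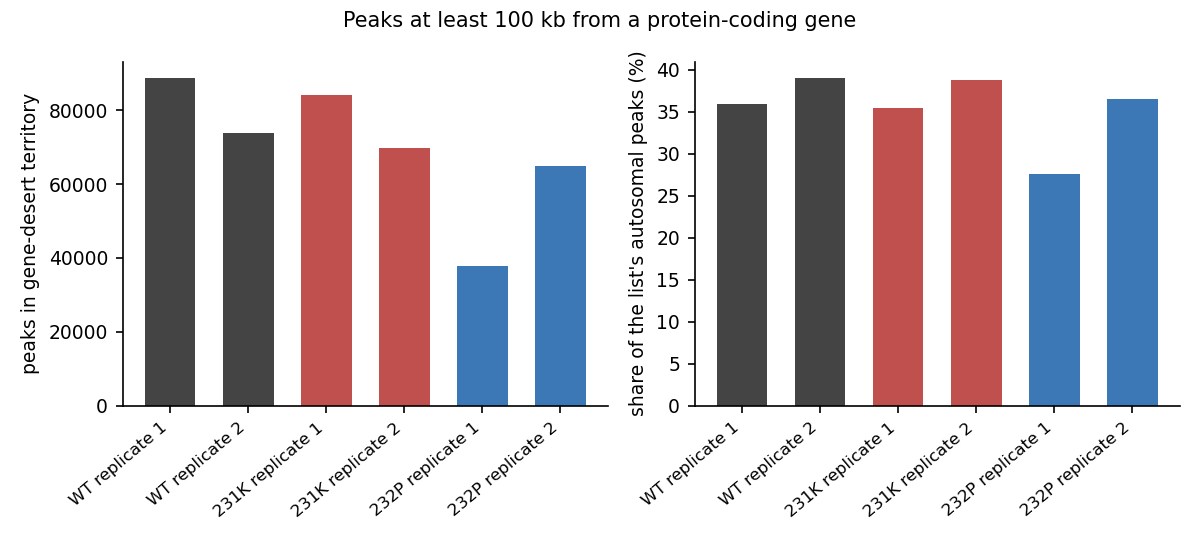
Number of peaks in gene-desert territory (left) and their share of the autosomal peaks of the list in percent (right), 1 bar per sample, both axes from 0. 232P replicate 1 is lowest on both sides, with 37716 peaks and 27.6%, and the ranges of WT and 231K overlap on both sides.

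The peaks and marks in these lists did not spread evenly over the gene deserts. Each gap between neighbouring protein-coding genes was taken as a desert, and 776 of them with at least 200 kb of territory were compared. Gene-desert marks occurred in 367 and were missing from 409. In 429 deserts, or 55.3%, peaks covered less than 1% of the territory in all 6 lists, and in 55 they covered more than 10% in all 6. Stretches of at least 200 kb without a peak took up 63.5% to 68.2% of the territory in the single lists, and 61.5% of it was free in such stretches of all 6 lists together. The cause of this confinement of peaks, which the 6 lists share, was not tested.

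No desert was under 1% covered in WT and over 10% in a Tau-KO list, or the reverse. Of the 436 deserts under 1% covered in both WT lists, 0 exceeded 10% in any Tau-KO list. Of the 229 deserts over 10% covered in both WT lists, 0 fell under 1% in any Tau-KO list, 232P replicate 1 included. The median CpG density was 6.29 per kb in the 429 deserts under 1% covered, of which 23 held marks, and 6.28 per kb in the rest, but 7.64 per kb in the 45 deserts with over 50% covered by marks. The median GC content of those 45 was 40.3%, against 38.2% over all 776. The median over deserts of the coverage in 231K relative to WT was 0.990, and that of 232P was 0.533 over the 363 deserts with at least 0.5% covered in some list. Taken singly, the medians were 0.743 and 1.19 for the 231K samples and 0.164 and 0.867 for the 232P samples, so that 232P replicate 1 sets the value of that line.

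**Figure D4:**
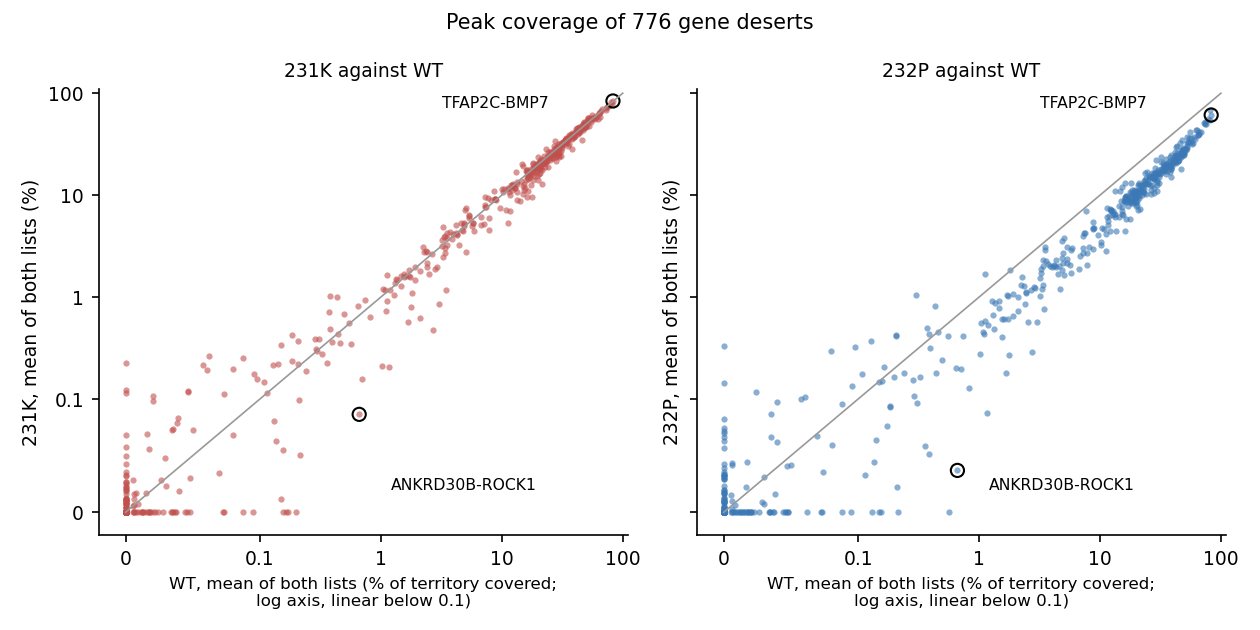
Percent of the territory of each of 776 gene deserts covered by peaks in 231K (left) and 232P (right) against WT, each the mean of both lists, on log axes that are linear below 0.1, with the line of equality. Points of 231K follow the line, with a median ratio of 0.990, points of 232P run below it, and the ANKRD30B to ROCK1 desert lies far below in both.

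Ranked by cover with marks under 20 kb, the most densely marked desert lay between TFAP2C and BMP7. Marks of 20 kb or more are not counted, and the order by peaks of any width was not the same. In WT replicate 2 peaks covered 82.0% there, 86.2% between RALGAPA2 and KIZ and 83.8% between SHH and RNF32. In WT replicate 1 the values were 84.1%, 75.2% and 79.3%. Marks under 20 kb covered 88.0% of the territory between TFAP2C and BMP7, genes for a transcription factor of the AP-2 family and a bone morphogenetic protein. They covered 72.2% between IRX4 and IRX2, homeobox genes of the Iroquois family, and 71.6% between POU3F1, a POU factor of glia and neurons, and RRAGC. Next came SDHAF3 to TAC1 (68.1%), RALGAPA2 to KIZ (66.1%), GALR1 to SALL3 (65.9%), IRF8 to FOXF1 (62.9%), ACTR3B to DPP6 (62.4%), SHH to RNF32 (61.9%) and EXOC2 to FOXQ1 (61.1%). SHH encodes the Sonic hedgehog signal, FOXF1 and FOXQ1 are forkhead factors, SALL3 is a zinc finger transcription factor, and TAC1 encodes the precursor of substance P.

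In the TFAP2C to BMP7 desert (chr20:56639284-57168752), peaks covered 84.1% and 82.0% of the territory in WT, 79.1% and 88.8% in 231K, and 54.5% and 67.7% in 232P. WT and 231K overlapped, and both 232P samples lay below. Nearly all of its 53 marks were found again, with 100% in both 231K samples and 92.5% and 98.1% in 232P. In the IRX4 to IRX2 desert (chr5:1887237-2745844), coverage was 66.0% and 65.0% in WT, 54.4% and 62.8% in 231K, and 37.4% and 42.1% in 232P. Both WT values lay above every Tau-KO value there. The deserts of this paragraph were named for their cover by WT marks. Their order against WT is therefore a description, and a difference from WT is not read from them. In the SHH to RNF32 desert (chr7:155812464-156640280) coverage was 79.3% and 83.8% in WT, 73.1% and 83.0% in 231K, and 62.3% and 74.5% in 232P.

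Of the deserts next to listed transcription factor genes, a larger share was dense than of all deserts. Of 105 deserts flanked by a gene from a list of developmental transcription factors, 16, or 15.2%, had over 50% of their territory covered by marks, against 45, or 5.80%, of all 776. Of those 45 dense deserts, 26 were flanked by no gene of the 4 lists used here. Of 30 deserts flanked by cadherins 1 was so dense, of 78 flanked by synaptic and neurite adhesion proteins 0, and of 48 flanked by ion channels and transmitter receptors 2. The share of deserts with any mark was 44.8% for transcription factors, 63.3% for cadherins, 38.5% for adhesion proteins and 64.6% for ion channels and receptors, against 47.3% of all. The median presence of marks per transcription factor desert was 84.1% and 90.4% in 231K and 46.8% and 80.9% in 232P, against 73.8%, 84.3%, 34.4% and 71.4% over all deserts with marks.

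The cadherin desert with the densest marks lay between MPHOSPH6 and CDH13, an atypical cadherin anchored to the membrane by a lipid, with 57.2% covered. For channels and receptors, YTHDC2 to KCNN2, a calcium-activated potassium channel, had 57.7%, KCND3 to CTTNBP2NL 56.1%, and MSX2 to DRD1, a dopamine receptor, 45.4%.

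The deserts with the most marks were long, with 17.7% to 28.9% of their territory covered by marks and a GC content between 35.0% and 36.3%. AGA to TENM3 (chr4:177442438-182143986), next to a teneurin of neuronal wiring, held 620 marks, followed by OLFM4 to PRR20A with 518, STIM2 to PCDH7 with 486, SEL1L to FLRT2 with 483, and CDH9 to CDH6 with 482. Between AGA and TENM3, coverage was 18% and 33.6% in WT, 17.7% and 32% in 231K, and 4.15% and 25.8% in 232P. WT and 231K overlapped, and 232P replicate 1 was far lower. The desert was picked by its number of WT marks, so this order is a description and no difference from WT is read. Of the 620 marks, 76.5% and 88.4% were present in 231K and 36.5% and 81.8% in 232P. Empty deserts of like size were CELF4 to PIK3C3, IGFBP7 to ADGRL3, NUDT12 to EFNA5 and SLITRK5 to GPC5, named here after their values were seen, with 0 marks each and at most 3 peaks in any list.

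**Figure D5:**
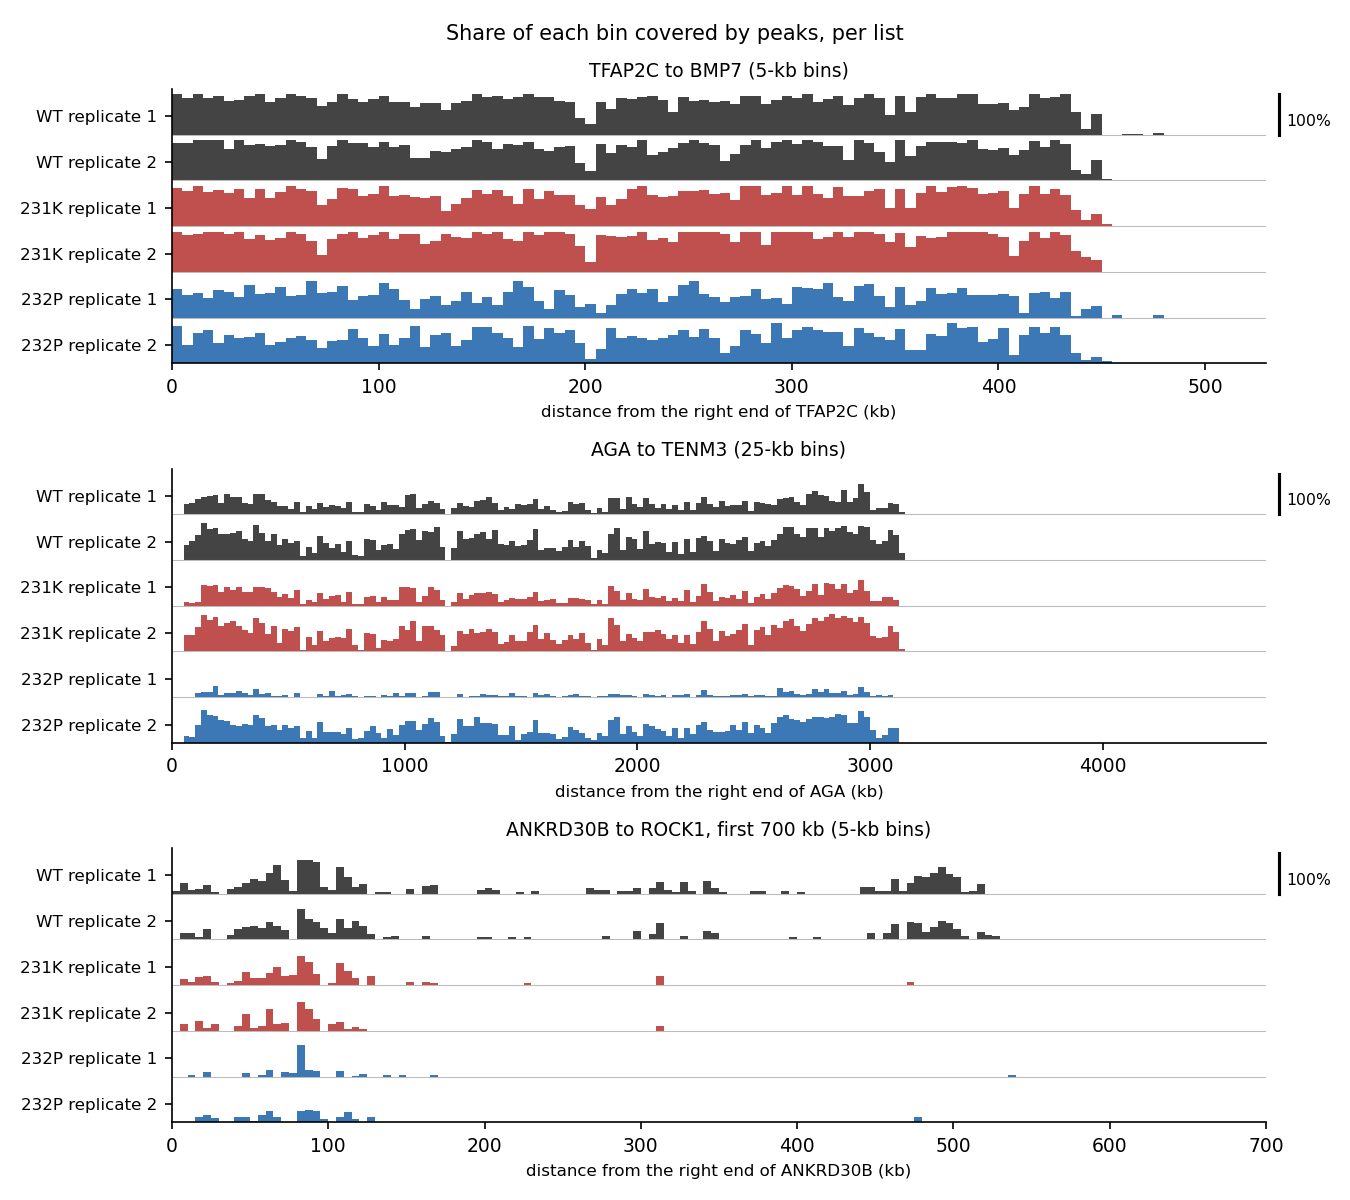
Share of each bin covered by peaks (bar height, 100% marked at the right) along 3 deserts, by distance from the right end of the left gene in kb, with 1 track per list. The TFAP2C to BMP7 and AGA to TENM3 deserts have an empty or nearly empty right end in all 6 lists, with the filled part of AGA to TENM3 much thinner in 232P replicate 1, while in the ANKRD30B to ROCK1 desert the cluster of peaks farther right, within the span of the 30 marks, stands out in the WT tracks and is nearly empty in the Tau-KO tracks.

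A small group of deserts, 6 of 8 at or near a centromere, stood out by a higher coverage in WT than in both Tau-KO lines. Among the 363 deserts with at least 0.5% of their territory covered in some list, both WT lists lay above all 4 Tau-KO lists in 44, or 12.1%, and all 4 Tau-KO lists lay above both WT lists in 0, or 0.00%. The first count was 10 when a -log10 q-value of 5 or more was required, 23 with equal numbers of peaks, 158 without WT replicate 1 and 126 without 231K replicate 2. The second count also needs 232P replicate 1, at a median of 0.164 times WT, and was 1 without it. Between WT and 231K alone, both WT lists lay above in 46 deserts and both 231K lists in 1. Those counts were 47 and 195 without 231K replicate 1, and 51 and 94 without WT replicate 2. They were 264 and 1 without 231K replicate 2, and 161 and 4 without WT replicate 1. The direction for 231K thus turned with the replicate left out. In 8 of the 363 deserts, or 2.20%, both WT lists lay above all 4 Tau-KO lists and the WT mean was over 3 times the Tau-KO mean. These 8, found after the values were seen, were TP53TG3D to TP53TG3, IGHV3OR16-17 to ENSG00000284209 and ENSG00000284209 to SHCBP1 on chromosome 16, ANKRD30B to ROCK1 on chromosome 18, TPTE to POTED on chromosome 21, the stretch before OR11H1 on chromosome 22, SDK1 to FOXK1 on chromosome 7 and SNTG1 to PXDNL on chromosome 8. Those on chromosomes 18, 21 and 22, and ENSG00000284209 to SHCBP1, span the centromere of their chromosome, and the other 2 on chromosome 16 lie on its short arm nearby. Those on chromosomes 7 and 8 do not lie next to a centromere, and SDK1 to FOXK1 held few peaks, 3 and 5 in WT, 3 and 0 in 231K, and 1 and 2 in 232P. When a -log10 q-value of 5 or more was required, ENSG00000284209 to SHCBP1 alone of the 8 kept this call, and 4 others that are not among the 8 had it. With equal numbers of peaks, 5 of the 8 kept it. SNTG1 to PXDNL had it in only 4 of the 10 settings other than the stricter q-value, all peaks included. In hg38, gaps that span a centromere are largely model sequence of centromere repeats, to which reads map poorly. How reads mapped in these deserts was not tested.

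ANKRD30B to ROCK1 (chr18:14854668-20944611) is also 1 of the 5 deserts with the most territory. Peaks covered 0.761% and 0.563% of it in WT, 0.124% and 0.0485% in 231K, and 0.0290% and 0.0449% in 232P. They numbered 91 and 61 in WT, 21 and 8 in 231K, and 8 and 5 in 232P. The highest Tau-KO value was 22.1% of the lower WT value. Its 30 gene-desert marks lay within 413 kb, from 14959136 to 15372015, and 3, 3, 1 and 3 of them were present in the Tau-KO samples. The local background at these marks was at the floor of the list in both WT samples, 1.52 and 1.38. Of the 30 marks, 10 had at least 50% of their 50-base windows in more than 1 copy in hg38.

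In ENSG00000284209 to SHCBP1 (chr16:34381111-46578590), which held 73 marks, coverage was 3.24% and 3.64% in WT, 1.28% and 1.05% in 231K, and 0.623% and 0.916% in 232P. In TPTE to POTED (chr21:10606141-13609776), it was 1.62% and 1.74% in WT, 0.541% and 0.592% in 231K, and 0.0870% and 0.276% in 232P. In the stretch before OR11H1 on chromosome 22, it was 1.38% and 0.961% in WT, 0.248% and 0.169% in 231K, and 0.108% and 0.0679% in 232P. As these deserts were picked for WT values above all Tau-KO values, their order is fixed by the choice.

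The 6 deserts of this group on chromosomes 16, 18, 21 and 22 held 185 gene-desert marks, of which 39.5% and 28.1% were present in 231K and 22.7% and 20.5% in 232P. Of the 36921 marks outside the 8 deserts, 75.1%, 83.3%, 39.3% and 73.5% were present. The deserts were picked for low Tau-KO coverage, so this gap is a description and no support. In the 8 deserts, 27.5% of the 189 marks had at least 50% of their windows in more than 1 copy, against 3.18% elsewhere, so repeated sequence moves with this result. Its part in the result was not tested. Over all deserts, the 1227 gene-desert marks that were at least 50% multi-copy were found in 68.7%, 72.9%, 36.5% and 55.7% of cases.

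Of the 5 deserts with the most territory, the other 4 were ZNF716 to ZNF722 on chromosome 7, KCNJ18 to WSB1 on chromosome 17, ZNF337 to DEFB115 on chromosome 20 and ZNF254 to UQCRFS1 on chromosome 19. Coverage of ZNF716 to ZNF722 was 2.65% and 3.01% in WT, 1.56% and 2.18% in 231K, and 0.853% and 1.63% in 232P. Both WT values lay above all 4 Tau-KO values there. In KCNJ18 to WSB1 it was 4.52% and 5.12% in WT, 3.6% and 5.26% in 231K, and 1.41% and 3.42% in 232P. In that desert WT and 231K overlapped. In ZNF337 to DEFB115 it was 11.4% and 14.4% in WT, 10.1% and 13.4% in 231K, and 3.68% and 9.15% in 232P, again with overlap of WT and 231K. In ZNF254 to UQCRFS1 it was 10.4% and 8.80% in WT, 7.86% and 7.22% in 231K, and 3.49% and 4.71% in 232P, with both WT values above all 4 Tau-KO values. In ZNF337 to DEFB115, 85.3% and 87.5% of 327 marks were present in 231K and 56.3% and 77.4% in 232P.

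The single marks that ranked highest in both WT lists lay in repeated sequence. Between CA2 and ATP6V0D2 on chromosome 8, the marks chr8:85740587-85743631, chr8:85773450-85774738 and chr8:85659499-85661204 were multi-copy over 86.7%, 96.0% and 76.5% of their windows, and the last overlapped the pseudogene REXO1L1P. At the first, the fold enrichment was 8.42 and 9.71 in WT, 7.82 and 12.0 in 231K, and 5.96 and 6.66 in 232P. Its local background was 22.3 and 14.3 in WT, far above the floor. The mark on chromosome 4 whose summit is printed above was multi-copy over 58.1% of its windows, with a fold enrichment of 14.5 and 12.8 in WT, 7.47 and 7.81 in 231K, and 9.41 and 8.42 in 232P. The mark was picked by its WT values, so their order against Tau-KO is not read. The remaining 2 of the highest 6, chr21:8419723-8420778 and chr21:9822829-9824002, lay before TPTE and were multi-copy over 100% and 65.2% of their windows. All 6 had a peak in all 6 lists.

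The 5 marks that were strong in WT and absent from all Tau-KO lists were chr22:12308592-12308989, chr16:32847539-32847913, chr6:58064626-58065277, chr9:22965603-22967042 and chr9:65989605-65989975. Their fold enrichment in WT lay between 4.59 and 7.31. For 3 of them, 85.7% or more of the windows were multi-copy, and chr16:32847539-32847913 overlapped the immunoglobulin segment IGHV2OR16-5. The mark between DMRTA1, a transcription factor of the DMRT family, and ELAVL2, a neuronal RNA-binding protein, had no multi-copy window. It lay 510 kb from DMRTA1 and 723 kb from ELAVL2 within the lncRNA gene ENSG00000284418, was 1440 bp wide, and reached a fold enrichment of 5.16 and 5.04 in the WT lists at a background at the floor of both lists.

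The widest mark was present in every list. The mark chr8:6049106-6069019, between CSMD1 and MCPH1, reached a fold enrichment of 6.75 and 6.30 in WT, 6.56 and 7.5 in 231K, and 4.93 and 6.18 in 232P. WT and 231K overlapped there.

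By chromosome, marks were densest on chromosome 14, with 81.7 per Mb of territory, and on chromosome 22, with 75 per Mb, and sparsest on chromosome 11, with 21.9 per Mb, and chromosome 10, with 23.8 per Mb. Local background was raised at the marks of chromosome 7, with medians of 2.17 and 2.00 in WT against 1.52 and 1.38 on chromosome 4. On chromosome 1 the medians were 1.85 and 1.67 in WT. On both chromosomes it was raised in all 6 lists. Marks of chromosome 7 were found in 79.8% and 90.0% of cases in 231K and 53.8% and 83.1% in 232P. Chromosome 22 stood apart, with 80.8% and 75.3% in 231K and 60.6% and 56.9% in 232P, with replicate 1 above replicate 2 in both lines, the reverse of all marks together.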

How the data were processed

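H3K27me3 ChIP-seq of SH-SY5Y cells was analysed from the deposited peak lists, 1 per ChIP sample and not pooled. Inputs (6 samples) came without lists and were not used here. Samples were grouped by the labels, although all peaks of both 232P lists carry names that begin with 231P, another Tau-KO line of the study. Reads had been trimmed by the authors (trimmomatic), aligned to HG38 (BWA) and passed to MACS for peak calling, per the methods with the broadPeak setting, while the deposited lists have the narrowPeak format. In them, the deposited fold enrichment is a ratio of summit reads to local background, its -log10 p-value and -log10 q-value at the summit were deposited beside it, and the deposited score is derived from the -log10 q-value. All of these depend on depth and were not normalized between samples. Their smallest -log10 q-value lay between 0.824 and 0.842, so weak peaks are included.

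Marks, deserts and presence (an overlap of 1 bp) were computed in Python 3.11.15 (numpy 2.4.6, pandas 2.3.3, scipy 1.17.1). Summit reads and local background were recovered with the Poisson distribution of MACS, and whole reads came out for 100% of peaks (tolerance 0.001 in the -log10 p-value). The lowest background divided by the narrowest peak gave the relative depth. The number of reads is unknown, so no counting interval for a peak is given. A window of 50 bases was called multi-copy when hg38 held it more than 1 time on either strand. Samples were compared by exact permutation tests, two-sided. Each p-value is the share of relabelings or sign flips of these samples that gave a difference at least as large. With 2 samples a genotype, their small number sets the smallest p-value. The limma test of the study on read counts could not be repeated on peak lists. The steps were tested on simulated marks with known answers.

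The marks, gene lists and comparisons were chosen with earlier results of these data known. Named were the 6 strongest marks by the lower WT percentile of the -log10 q-value, the marks of a -log10 q-value of 5 or more in both WT lists absent from all Tau-KO lists, the 3 widest, the 10 deserts with the largest share covered by marks, the 5 with the most marks, the 5 with the most territory, and up to 3 per gene list. Alternatives were stricter thresholds, equal numbers of peaks, equal depth (summit reads and background of each peak scaled to the lowest relative depth, an estimate, with 1 threshold on the -log10 p-value for all lists), merging within 1 kb, presence at 50% covered, other distances and widths, lncRNA gene bodies left out, chromosomes 7, 17, 1q and 2p left out, permutation with the replicate as a block, and omission of each replicate. A few marks and 1 desert picked by these rules are not reported here.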

Additional observations from a re-analysis of the deposited data

How the results depend on the processing

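Of the alternatives, a -log10 q-value of 5 or more left 3820 gene-desert marks, equal numbers of strongest peaks 19350, and merging within 1 kb 17106. When 1 replicate was left out, the marks numbered 37110 to 88787, since 1 WT list alone gives more, and the mean presence in 231K was 61.2% to 83.0%, with 61.3% without WT replicate 1. With presence only where 50% of a mark was covered, the mean was 47.8% in 231K and 23.2% in 232P. The difference of gene-desert to other WT marks was negative under every alternative run. The share absent from both 231K samples was 8.64% at the stricter q-value, 9.20% at a q-value under 0.05, 9.41% with equal numbers, 8.44% at equal depth, 12.9% with merging, 33.1% at 50% covered, 9.21% and 10.8% with a gene distance of 50 and 200 kb, and 10.4% with widths under 5 kb. That for 232P was 35.5% at the stricter q-value, 16.7% with equal numbers, 18.2% at equal depth, 23.4% with merging, 56.4% at 50% covered, 21.5% and 23.6% at 50 and 200 kb, 23.6% under 5 kb and 22.8% without chromosomes 7, 17, 1q and 2p. When a replicate of another genotype was left out they were 9.73% to 24.2% for 231K and 22.2% to 39.97% for 232P, the high values being those with 1 WT list. Gene-desert marks of the 232P pair were 0.209 times those of WT at that stricter q-value and 0.768 times with equal numbers. The ratio of 231K to WT lay so close to 1 that it turned. For the number of territory peaks it was 1.06 at the stricter q-value, 1.02 at equal depth, and 0.859 to 1.04 when replicates were left out. For their share it was 1.00395 at equal depth and 0.945 to 1.03 when replicates were left out.

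Alternatives for the deserts were chosen after seeing the data. Deserts with both WT lists above all Tau-KO lists numbered 10 at the stricter q-value, 23 with equal numbers, 31 at equal depth, and 44 to 158 when 1 replicate was left out, with 158 without WT replicate 1 and 126 without 231K replicate 2. The reverse held for 1 desert with equal numbers and for 0 to 1 when replicates were left out. Deserts with WT over 3 times Tau-KO numbered 5 at the stricter q-value, 5 with equal numbers, and 7 to 12 when replicates were left out. At the stricter q-value only 1 of the 8 deserts of the report, ENSG00000284209 to SHCBP1, kept this call, and the other 4 with it there were new. Under all remaining alternatives 5 of the 8, on chromosomes 16, 21 and 22, kept it. ANKRD30B to ROCK1 lost it at the stricter q-value and with equal numbers, where its WT coverage was still 12.5 times that of Tau-KO, against 10.7 with all peaks. Of the 10 settings other than the stricter q-value, all peaks included, SDK1 to FOXK1 had it in 8, losing it with equal numbers and without WT replicate 2, and SNTG1 to PXDNL in 4.

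Without 232P replicate 1, left out here after seeing the data, 57.2% of gene-desert marks were present in every Tau-KO list and 6.52% in none, and the median coverage of deserts in 232P was 0.867 times that in WT.

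In the presence of single marks, replicate numbers hardly paired the samples, with correlations of the deviations of 0.0236, 0.0483 and 0.0377 over 97396 marks. Lists with the same number still shared properties across genotypes, with a median peak width of 441, 440 and 335 bp in replicates 1 and 682, 688 and 666 bp in replicates 2 of WT, 231K and 232P. Within each number, 231K and 232P lay below WT in the number, the share and the covered length of territory peaks, while WT and 231K overlapped when the numbers were pooled. Permutation within the replicate number as a block gave exact p = 0.444 for the number and for the share of territory peaks in Tau-KO against WT, and 0.500 for each line, where 0.111 and 0.500 are the smallest. The ratios are those without the block, 0.789, 0.947 and 0.631 for the number and 0.922, 0.989 and 0.856 for the share. The cause of these changes was not tested. Own-pair marks need both samples of a genotype and were not computed with 1 left out. Estimated relative depth was not lowest in 232P replicate 1, which had the fewest marks, but in 232P replicate 2, with 68.1% and 56.9%. The part of depth in absent marks was not tested.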
